A study of Mus musculus with 6 samples.

Results

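The genes described here are 44 members of the Wnt signalling pathway, chosen by symbol. They comprise 11 Wnt ligands, 10 Frizzled receptors, 4 co-receptors and Ror receptors, 4 genes that set receptor turnover, 6 secreted or surface inhibitors, 5 genes for the Axin scaffold and the TCF/LEF factors, and 4 feedback and target genes. Each of the 44 was found among the 27179 genes of the count table. Messenger RNA was sequenced from EpCAM-positive cells that were sorted by flow cytometry from E16.5 mouse lungs. Control samples were Shh-Cre;Grhl2f/+ (n = 3, replicates 1, 3 and 7), with a floxed and an intact copy of Grhl2, a grainyhead-family transcription factor gene. Grhl2_cKO samples were Shh-Cre;Grhl2f/- (n = 3, replicates 1, 5 and 10), with a floxed and a null copy. All samples carry the Cre transgene, driven by the Sonic hedgehog gene, so Control cells that were recombined are heterozygous for Grhl2 and are not an undeleted reference. The female samples were Control replicate 7 and Grhl2_cKO replicate 1, and the other 4 were male. The labels do not say whether a sample is 1 embryo or a pool, so the tests measure the spread between these samples.

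Wnt proteins are lipid-modified secreted ligands that bind a Frizzled receptor together with the co-receptor Lrp5 or Lrp6. Binding stalls the complex of Axin and Apc that marks beta-catenin for degradation, and stabilised beta-catenin joins TCF/LEF factors on target genes such as Axin2, Sp5 and Lef1. Other branches signal through Ror receptors without beta-catenin. In the embryonic lung, epithelial Wnt7b and mesenchymal Wnt2 and Wnt5a are known for their roles in growth, branching and patterning.

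Library depth was 13472216 to 17228762 gene counts. Grhl2 itself fell to 74.4% of its Control level (edgeR adjusted p = 0.00204). These counts cover the whole gene and the labels do not say which part is floxed. Reads from a recombined or null copy therefore cannot be told from reads of an intact copy. Of the epithelial markers, Sftpc, a surfactant gene, stood at 12584 or more (CPM, counts per 1e6 on scaled library sizes) and Nkx2-1, a lung epithelial factor, at 597 CPM or more in every library. Epcam, the sort marker, was the 1 of 9 epithelial markers called, at 501 to 558 CPM in Control and 335 to 402 CPM in Grhl2_cKO libraries. Krt8, Cdh1 and Krt18 were also lower but not called, with folds of 0.718, 0.830 and 0.773 (edgeR adjusted p = 0.0843, 0.239 and 0.317). Of these, Krt8 and Cdh1 did not overlap between genotypes. Nkx2-1, Foxa2, Sftpc, Sox9 and Sox2 had folds of 0.963 to 1.06. Markers of other cells were not absent: 10 mesenchyme and smooth muscle genes summed to 931 to 1510 CPM in Control and 908 to 1752 CPM in Grhl2_cKO libraries, with Twist1 the 1 of the 10 below 1 CPM in Control. The 6 endothelial genes summed to 118 to 185 and 153 to 169 CPM. The 5 blood and immune genes summed to 5.90 to 8.64 and 5.74 to 8.89 CPM. The 5 nerve genes summed to 2.26 to 4.78 and 3.73 to 10.9 CPM, and 1 of them, Tubb3, was called higher. It read 0.193 to 0.373 CPM in Control and 0.887 to 3.66 CPM in Grhl2_cKO libraries (edgeR adjusted p = 0.0337). Ciliated airway genes summed to 115 to 154 CPM in Control and 47.7 to 75.03 CPM in Grhl2_cKO libraries (6 of 8 called lower), and secretory airway genes to 503 to 613 and 220 to 355 CPM (3 of 6 called lower). In such bulk samples, fewer cells of a type and less RNA per cell cannot be told apart, and the part of these cell types in the member values below was not tested.

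In Control epithelium 39 of the 44 members were detected at a mean of 1 CPM or more. Wnt3, Wnt10b, Fzd9 and Fzd10 lay between 0.1 and 1 CPM, and Wnt10a had 0 counts in each Control library. Each level between genes is given as CPM per kb (CPM divided by the gene length in kilobases that the count table lists). By this measure the highest members were Ccnd1, Lrp5, Wnt7b, Fzd2 and Fzd7, all above 50 CPM per kb, and the 6 inhibitors lay at 4.08 CPM per kb or less. The plot of levels by role shows each library.

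**Figure D1:**
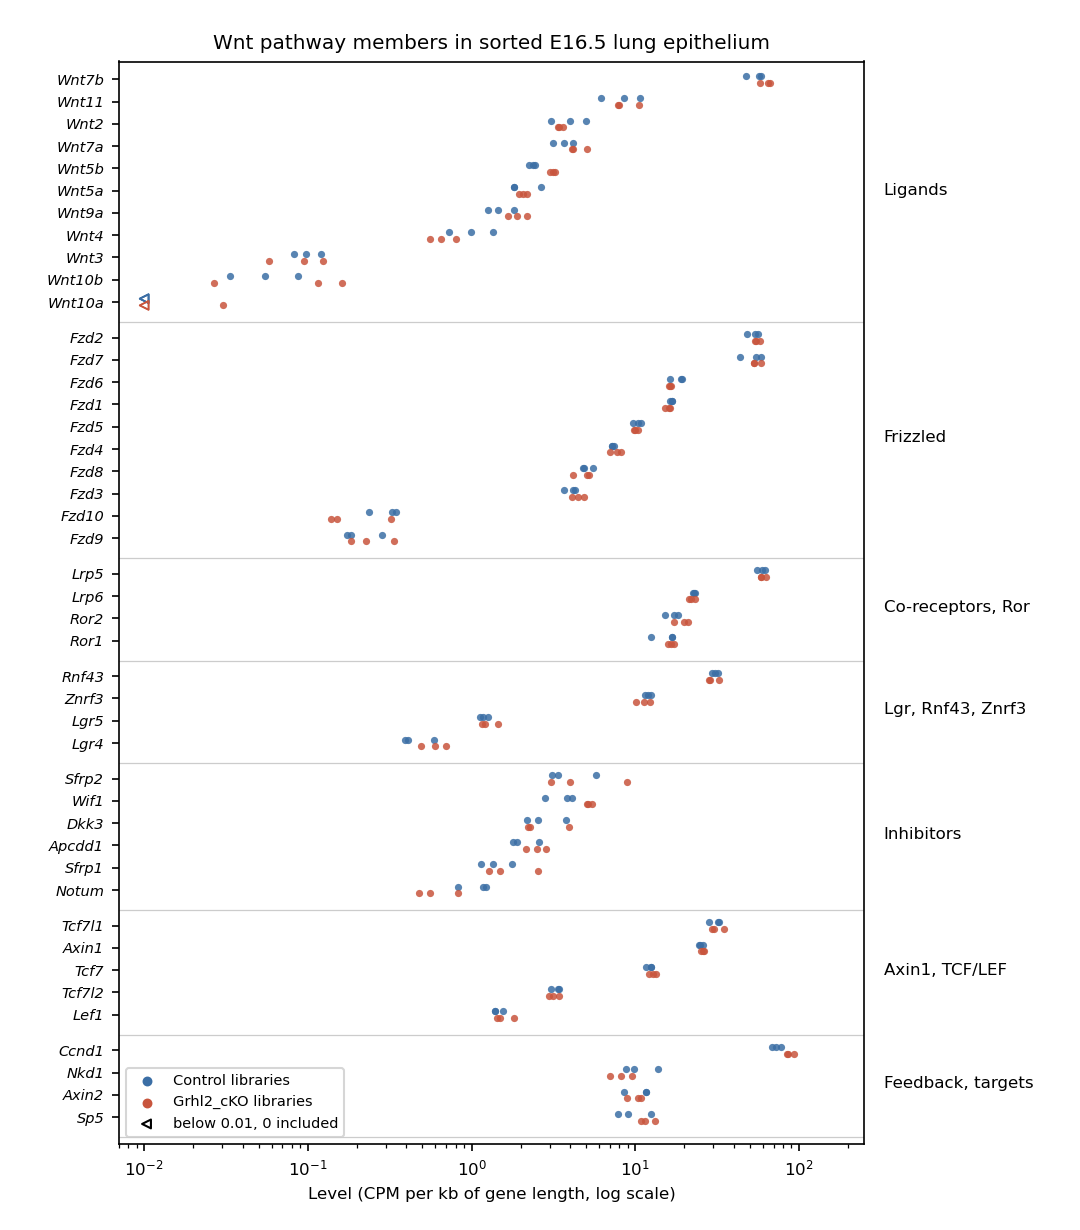
Level of each of the 44 members in each library, in CPM per kb on a log axis, grouped by role and ordered by the Control mean. Points are libraries, blue for Control and red for Grhl2_cKO. Open triangles mark values below 0.01, 0 included. Wnt7b stands apart among ligands at 54.5 CPM per kb in Control, and libraries of both genotypes lie close together for most members.

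None of the members passed the genotype test. Of 44 members, 40 passed the filter on low counts and were tested, and 0 had an edgeR adjusted p under 0.05. Over all 14842 genes tested, 533 (3.59%) were called, 353 lower (2.38%) and 180 higher (1.21%) in Grhl2_cKO. Leaving out 1 library gave fewer calls over all genes, by an extent that differed between libraries. Without Control replicates 1, 3 and 7 in turn there were 501, 293 and 325. Without Grhl2_cKO replicates 1, 5 and 10 in turn there were 468, 249 and 246. At an unadjusted p under 0.05 there were 8 members, 4 higher and 4 lower (20% of 40, against 13.3% of all genes). DESeq2 called 1 member, Ccnd1, and limma-voom called 0. The CPM of the genotypes did not overlap for 3 members, Ccnd1, Wif1 and Wnt5b, all higher in Grhl2_cKO (7.50% of 40). Among all genes tested, 18.1% did not overlap, 8.17% higher and 9.89% lower. The median log2 fold change of the 40 was 0.06, against -0.0041 over all genes.

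A p that misses the threshold does not show that the genotypes were alike, so the 95% interval of each fold change was computed from the same fit. For 27 of the 40 members (67.5%) the whole interval lay within 1.5-fold in either direction, against 73.8% of all genes. For 13 members (32.5%) it lay within 1.25-fold, against 49.4%. All 4 co-receptors and Ror receptors, all 5 scaffold and TCF/LEF genes and 8 of the 9 tested Frizzled receptors were among the 27. By contrast 1 of 6 inhibitors, 4 of 8 tested ligands and 2 of 4 feedback and target genes were. For the rest a change beyond 1.5-fold was not excluded.

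**Figure D2:**
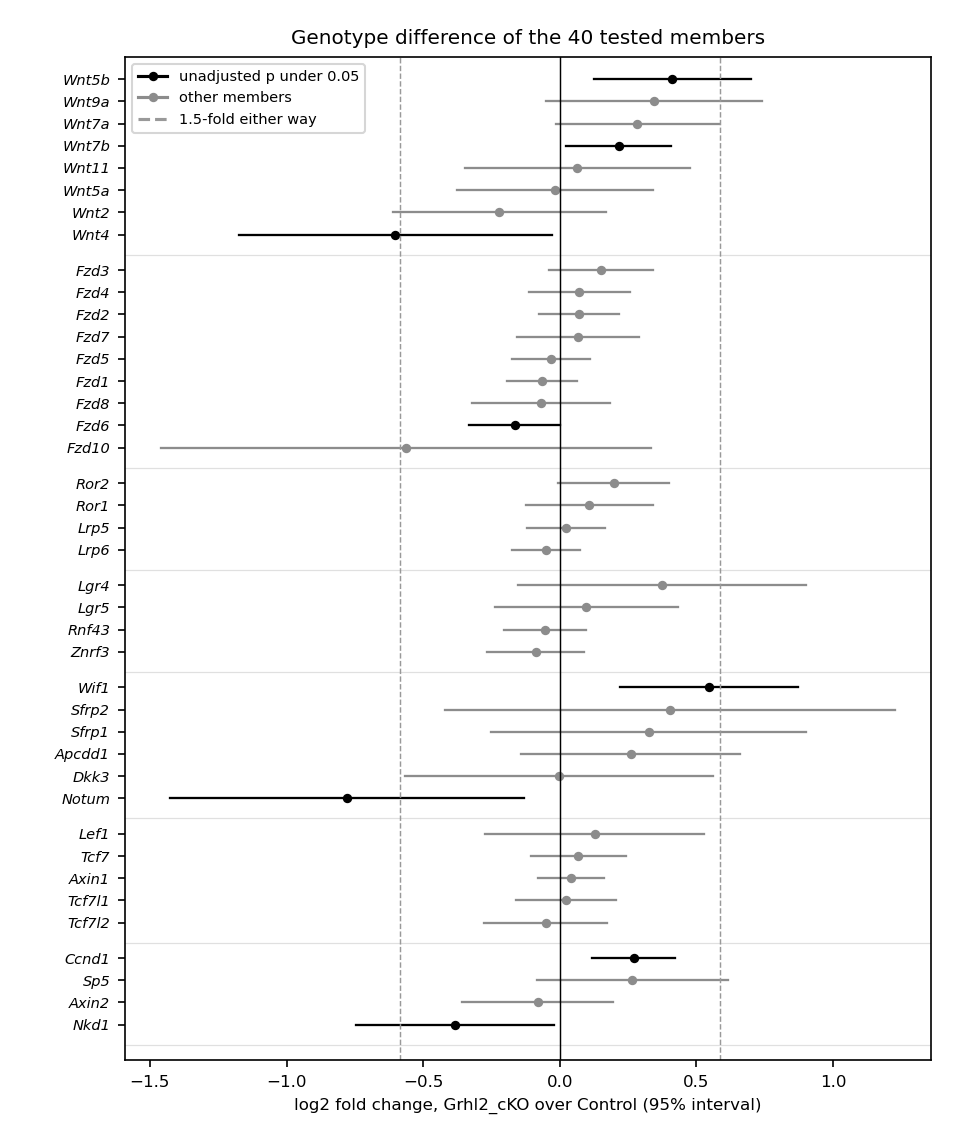
Log2 fold change of Grhl2_cKO over Control for the 40 tested members, with its 95% interval from the edgeR fit, grouped by role. Black marks the 8 members with an unadjusted p under 0.05, grey the others, and dashed lines a 1.5-fold change. The co-receptors, Ror receptors, Axin1 and TCF/LEF factors have intervals inside the dashed lines, and Fzd10, Sfrp2 and Notum have the 3 widest.

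Among the ligands, Wnt7b dominated. It made up 62.5% to 72.3% of the summed CPM per kb of all 19 Wnt genes in Control libraries and 68.2% to 72.8% in Grhl2_cKO libraries. Wnt7b (Entrez 22422, chromosome 15, 85535437 to 85581821, mm10) is an epithelial ligand that acts on the neighbouring mesenchyme and on the epithelium. It read 210.4, 252 and 259 CPM in Control 1, 3 and 7, against 257, 287 and 294 CPM in Grhl2_cKO 1, 5 and 10. The groups overlapped, since Grhl2_cKO replicate 1 lay just under Control replicate 7. The fold change was 1.16 (95% interval 1.02 to 1.33, edgeR adjusted p = 0.295).

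Wnt11, a ligand best known for signalling without beta-catenin, came next in Control at 8.44 ± 2.24 CPM per kb (SD, n = 3), with no overlap of its Control range with that of Wnt7b or the next gene. It read 29.6, 17.2 and 23.8 CPM in Control, against 21.8, 22.1 and 29.5 CPM in Grhl2_cKO (values here and below in the order of those replicates). The Grhl2_cKO values lay inside the Control range (fold 1.05, interval 0.785 to 1.39). Wnt2 and Wnt7a followed at 4.03 ± 0.98 and 3.67 ± 0.51 CPM per kb, and their Control ranges overlapped. Wnt7a is the close relative of Wnt7b. It read 13.3, 10.04 and 11.6 CPM in Control, against 16.04, 13.3 and 13.1 CPM in Grhl2_cKO (fold 1.22, interval 0.990 to 1.497, edgeR adjusted p = 0.414).

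Wnt5b, a ligand of the branch without beta-catenin (Entrez 22419, chromosome 6, 119432531 to 119544824), was the ligand with the smallest p. It read 5.82, 5.29 and 5.61 CPM in Control 1, 3 and 7, against 7.45, 7.64 and 7.16 CPM in Grhl2_cKO 1, 5 and 10. Every Grhl2_cKO library lay above every Control library. The log2 fold change of 0.41 ± 0.13 (SE) did not pass after adjustment (unadjusted p = 0.00976, edgeR adjusted p = 0.148), and it was not called in any of 15 alternatives (adjusted p 0.129 to 0.414). Its relative Wnt5a stood at 8.0 to 11.6 CPM in Control and 8.53 to 9.55 CPM in Grhl2_cKO libraries, a log2 fold change of -0.02 ± 0.16.

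Wnt4, a ligand that is active in many developing epithelia, pointed the other way. It read 5.15, 2.80 and 3.80 CPM in Control, against 3.06, 2.12 and 2.48 CPM in Grhl2_cKO. Grhl2_cKO replicate 1 lay above Control replicate 3, so the groups overlapped. Its fold change was 0.659 (interval 0.443 to 0.980, edgeR adjusted p = 0.341). Wnt2 had a fold change of 0.858 (interval 0.655 to 1.12) and Wnt9a of 1.27 (interval 0.967 to 1.67), both not called. At the foot of the order, Wnt3 had 3 to 6 counts and Wnt10b 1 to 6 counts per library. Wnt10a had 1 count in Grhl2_cKO replicate 10 and 0 in the other 5 libraries, where a count of 0 allows up to 0.224 CPM (3 counts in the library, counting error only). These 3 genes were not tested.

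The Frizzled receptors that bind Wnt proteins were led by a pair. Fzd2 and Fzd7 stood at 52.9 ± 4.10 and 52.6 ± 7.75 CPM per kb in Control (SD, n = 3), with overlapping ranges. Together they held 62.4% to 63.6% of the summed Frizzled CPM per kb in Control and 64.3% to 65.4% in Grhl2_cKO libraries. Fzd6 and Fzd1 came next, at 18.2 and 16.6 CPM per kb with overlapping ranges, then Fzd5, Fzd4, Fzd8 and Fzd3, each apart from its neighbour, down to 4.05 CPM per kb for Fzd3. Fzd10 and Fzd9 lay at 0.303 and 0.213 CPM per kb.

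Fzd2 read 205, 176 and 195 CPM in Control, against 195, 199 and 209 CPM in Grhl2_cKO. Fzd7 read 211, 265 and 282 CPM, against 254, 284 and 256 CPM. Fzd1 read 73.8, 71.1 and 73.3 CPM, against 66.7, 71.2 and 70.6 CPM. In each of these 3 receptors the groups overlapped, and the fold changes were 1.05 (interval 0.948 to 1.16), 1.05 (0.897 to 1.22) and 0.956 (0.874 to 1.05). Fzd6, a receptor known for planar cell polarity, had the smallest p of the family. It read 67.3, 79.1 and 79.9 CPM in Control, against 66.2, 68.5 and 67.2 CPM in Grhl2_cKO, so Control replicate 1 lay within the Grhl2_cKO range. The log2 fold change was -0.17 ± 0.07 (SE, unadjusted p = 0.0494, edgeR adjusted p = 0.375). Fzd6 lies 1.64 Mb from Grhl2 on chromosome 15 (39006149 to 39038192), and an effect of the sequence around the null allele cannot be told apart from the genotype. The log2 fold changes of the other tested Frizzled genes ran from -0.56 ± 0.40 for Fzd10, at 7 to 17 counts per library, to 0.15 ± 0.09 for Fzd3.

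Of the co-receptors, Lrp5 lay above Lrp6, at 59.2 ± 3.23 against 22.9 ± 0.45 CPM per kb in Control. Lrp5 read 288, 310.1 and 320.2 CPM in Control, against 304, 305 and 324 CPM in Grhl2_cKO. Lrp6 read 210.3, 215 and 219 CPM, against 199, 218 and 205 CPM. Both differed little, with folds of 1.02 (interval 0.921 to 1.12) and 0.965 (interval 0.885 to 1.05). Ror2, a receptor for Wnt5a in the branch without beta-catenin, read 68.7, 60.6 and 72.6 CPM in Control, against 68.5, 78.7 and 84.0 CPM in Grhl2_cKO. Its highest libraries were Grhl2_cKO replicates 5 and 10, but replicate 1 lay within the Control range (fold 1.15, interval 0.996 to 1.32, edgeR adjusted p = 0.398). Ror1 had a fold of 1.08 (interval 0.918 to 1.27).

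Rnf43 and Znrf3 encode membrane ubiquitin ligases that remove Frizzled receptors from the surface. The Lgr receptors bind R-spondins, which hold these ligases in check. The ligases were high and the Lgr genes low: in Control, Rnf43 stood at 30.8 ± 1.37 and Znrf3 at 11.96 ± 0.53 CPM per kb, against 1.19 ± 0.07 for Lgr5 and 0.465 ± 0.11 for Lgr4. Rnf43 read 127, 132 and 139 CPM in Control, against 121, 139 and 123 CPM in Grhl2_cKO. Znrf3 read 75.3, 72.1 and 78.8 CPM, against 63.4, 77.7 and 71.8 CPM. Lgr5 read 5.30, 5.96 and 5.55 CPM, against 6.85, 5.71 and 5.44 CPM. The groups overlapped for all 3, with folds of 0.963 (interval 0.868 to 1.07), 0.941 (0.832 to 1.06) and 1.07 (0.848 to 1.35). Lgr4 rested on 31 to 59 counts per library and had a fold of 1.30 (interval 0.899 to 1.87).

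Wif1, a secreted protein that binds Wnt ligands, was the inhibitor with the smallest p (Entrez 24117, chromosome 10, 121034004 to 121100642). It read 9.26, 6.33 and 8.58 CPM in Control 1, 3 and 7, against 11.5, 11.4 and 12.2 CPM in Grhl2_cKO 1, 5 and 10. The groups did not overlap. The fold change was 1.46 (interval 1.17 to 1.83) with a log2 value of 0.55 ± 0.15 (SE), which did not pass (edgeR adjusted p = 0.0817). Without Control replicate 1 it was called (adjusted p = 0.0425), the 1 alternative of 15 in which it was, over a range of 0.0425 to 0.227.

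Notum, a secreted enzyme that strips the lipid from Wnt proteins and is itself a Wnt target, had the lowest log2 fold change of the members. It read 2.46, 2.37 and 1.68 CPM in Control, against 1.68, 0.962 and 1.12 CPM in Grhl2_cKO, from 15 to 39 counts per library. Control replicate 7 and Grhl2_cKO replicate 1 met at 1.68 CPM. Its log2 fold change of -0.78 ± 0.29 (SE, fold 0.583, interval 0.372 to 0.912) did not pass (unadjusted p = 0.023, edgeR adjusted p = 0.242), nor in any of 15 alternatives (0.143 to 0.558).

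**Figure D3:**
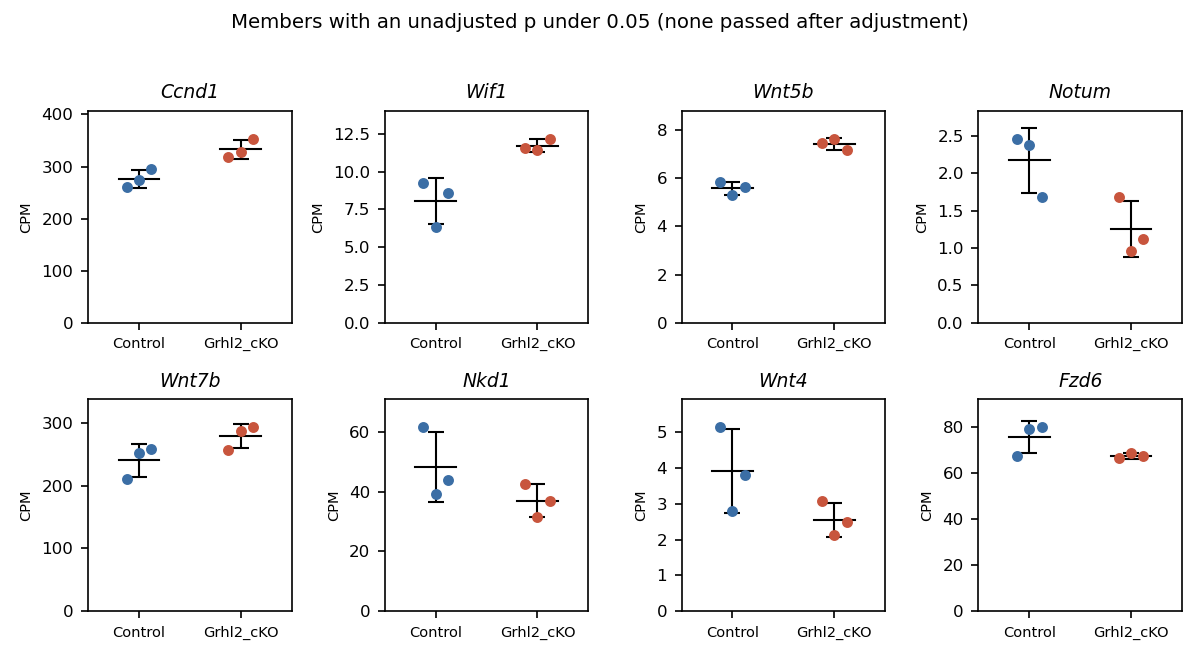
CPM of the 8 members with an unadjusted p under 0.05, in order of p. Points are libraries (replicates 1, 3 and 7 of Control, and 1, 5 and 10 of Grhl2_cKO, left to right), bars the mean and SD (n = 3). Ccnd1, Wif1 and Wnt5b have no overlap between genotypes, and the other 5 have.

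The secreted Frizzled-related proteins Sfrp1 and Sfrp2, which sequester Wnt ligands, and Dkk3, of the Dickkopf family, were not called. Sfrp2 read 11.5, 6.21 and 6.77 CPM in Control, against 17.8, 6.16 and 7.99 CPM in Grhl2_cKO. Sfrp1 read 7.69, 5.90 and 5.03 CPM, against 11.1, 5.58 and 6.51 CPM. Dkk3 read 12.6, 8.58 and 7.35 CPM, against 13.2, 7.44 and 7.69 CPM. Within each genotype replicate 1 was the highest library for all 3 genes. This was not particular to them, since it also held for Wnt4, Wnt5a, Wnt7a, Wnt9a, Lgr4, Notum and Nkd1. The summed marker lists of mesenchyme and smooth muscle, mesothelium, heart muscle and nerve also had replicate 1 highest within each genotype. So did those of ciliated and secretory airway cells, which are epithelial. Those of lung epithelium, endothelium, blood and immune cells and red cells did not. The 6 heart muscle markers were all highest in Grhl2_cKO replicate 1, where they summed to 210.0 CPM, and elsewhere they summed to between 28.0 and 48.7 CPM. The 10 mesenchyme and smooth muscle markers also summed highest there, at 1752 CPM, followed by Control replicate 1 at 1510 CPM. Taken singly over all libraries, 4 of these 10 were highest in Grhl2_cKO replicate 1 (Col1a1, Col1a2, Col3a1 and Twist1). Another 4 were highest in Control replicate 1 and 2 in other libraries. The 4 mesothelial markers summed to 60.7 CPM in Grhl2_cKO replicate 1 and 78.5 CPM in Control replicate 1, each the highest of its genotype. Over all libraries, 3 of the 4 were highest in Grhl2_cKO replicate 1. The remaining marker, Msln, was highest in Control replicate 1, at 45.2 CPM against 17.4 CPM in Grhl2_cKO replicate 1. It was lower in every Grhl2_cKO library than in any Control library but was not called (edgeR adjusted p = 0.0788). The 6 endothelial markers summed to 153 CPM in Grhl2_cKO replicate 1, the lowest of its genotype and within the Control range. The 5 nerve markers summed to 10.9 CPM in Grhl2_cKO replicate 1 and 2.26 to 4.88 CPM elsewhere, and 4 of the 5 were highest in that library. The part of these cells in the Sfrp and Dkk3 values was not tested. Without Grhl2_cKO replicate 1, the log2 fold change of Sfrp2 went from 0.40 ± 0.37 to -0.19, and that of Sfrp1 from 0.33 ± 0.26 to -0.03. Neither was called in any alternative. Wnt2b, a ligand outside the members that was picked after its values were seen, showed the same high library, at 5.77 CPM against 2.43 to 3.35 CPM in the others. Apcdd1, a membrane inhibitor, had a fold of 1.20 (interval 0.906 to 1.58).

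**Figure D4:**
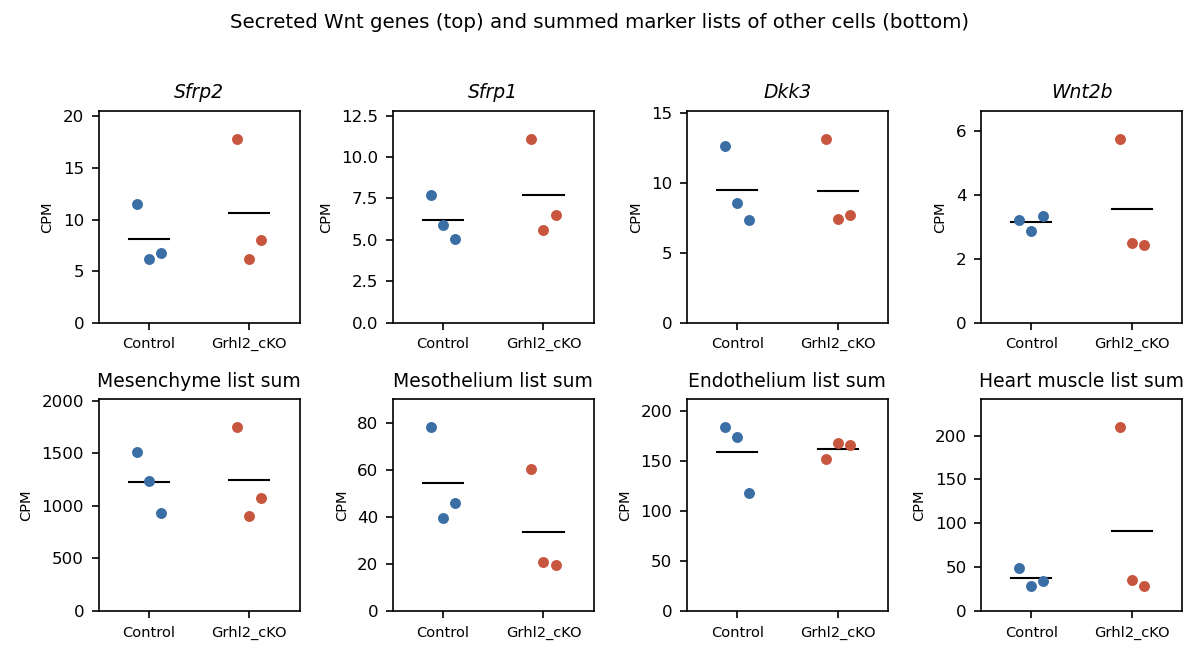
CPM by library of 4 secreted Wnt pathway genes (top) and summed CPM of the marker lists of mesenchyme and smooth muscle, mesothelium, endothelium and heart muscle (bottom). Points are libraries, replicates 1, 3 and 7 of Control and 1, 5 and 10 of Grhl2_cKO from left to right, and the line is the mean. Grhl2_cKO replicate 1 is the highest library for the 4 genes and for the mesenchyme and heart muscle sums, and Control replicate 1 for the mesothelium and endothelium sums.

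Axin1, a scaffold of the beta-catenin degradation complex, and the TCF/LEF factors were the steadiest role group. In Control, Tcf7l1 stood at 31.0 ± 2.25 CPM per kb, above Axin1 (25.1 ± 0.88), Tcf7 (12.2 ± 0.45), Tcf7l2 (3.29 ± 0.20) and Lef1 (1.45 ± 0.10), with no overlap of Control ranges between neighbours. Tcf7l1 is known mainly as a repressor, and Lef1 mainly as an activator. Tcf7l1 read 90.8, 79.1 and 88.9 CPM in Control, against 81.7, 83.8 and 97.6 CPM in Grhl2_cKO. Axin1 read 98.5, 93.7 and 92.1 CPM, against 97.5, 95.3 and 99.6 CPM. Tcf7 read 28.0, 27.9 and 26.2 CPM, against 27.2, 28.6 and 30.2 CPM. All 3 overlapped between genotypes, and the 5 log2 fold changes ran from -0.05 to 0.13. Lef1, the least counted of the 5, had a fold of 1.09 (interval 0.827 to 1.44).

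Axin2, the feedback scaffold often used as a readout of beta-catenin signalling (Entrez 12006, chromosome 11, 108917828 to 108950783), read 36.3, 49.5 and 49.6 CPM in Control 1, 3 and 7, against 44.3, 46.2 and 38.0 CPM in Grhl2_cKO 1, 5 and 10. The Grhl2_cKO values lay inside the Control range. Its log2 fold change was -0.08 ± 0.12 (SE, edgeR adjusted p = 0.919), with an interval of 0.781 to 1.15 in fold. Nkd1, a feedback inhibitor that binds Dishevelled, read 61.7, 39.3 and 43.8 CPM in Control, against 42.6, 31.4 and 36.7 CPM in Grhl2_cKO. The lowest libraries were Grhl2_cKO replicates 5 and 10, and replicate 1 lay inside the Control range (fold 0.767, interval 0.597 to 0.986, edgeR adjusted p = 0.337). Sp5, a transcription factor gene and target, read 16.4, 19.0 and 26.4 CPM in Control, against 24.0, 27.5 and 22.9 CPM in Grhl2_cKO (fold 1.20, interval 0.943 to 1.53). Nkd1, Axin2 and Sp5 lay at 9.82 to 10.8 CPM per kb in Control, with overlapping ranges. Of the 4 feedback and target genes, Axin2 and Nkd1 lay below 0 and Sp5 and Ccnd1 above, none of them called. Without Grhl2_cKO replicate 10, Axin2 went to 0.0039 on the log2 scale.

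Ccnd1, the cyclin D1 gene and a reported Wnt target that many growth signals also regulate, had the smallest p of the members (Entrez 12443, chromosome 7, 144929931 to 144939831). It read 261, 273 and 295 CPM in Control 1, 3 and 7, against 319, 328 and 354 CPM in Grhl2_cKO 1, 5 and 10. Every Grhl2_cKO library lay above every Control library. The fold change was 1.21 (interval 1.09 to 1.34), with a log2 value of 0.27 ± 0.07 (SE) that did not pass (unadjusted p = 0.00268, edgeR adjusted p = 0.0638). It was called in 4 of 15 alternatives, namely DESeq2 (adjusted p = 0.006), upper-quartile scaling (0.0485), no filter (0.0442) and robust quasi-likelihood (0.0458), over a range of 0.006 to 0.208.

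The letters that TCF/LEF factors are known to bind were searched for in the promoters of the members, and the matches are shown because they fall in genes described above. RefSeq promoters (GRCm38.p6, 250 bases before to 50 after a gene start) were given for 27 of the 44 members, with 36 starts. The letters ATCAAAG, on either strand, were found in 3 of the 36 (8.33%) and in 3.73% of all 32851 promoters. The members were Sp5, Wnt5b and Wnt11. Windows of 61 bases before the start, on the strand of the gene and 5′ to 3′, follow, with the motif in capitals. It reads as its reverse complement CTTTGAT in Sp5 and Wnt5b.
Sp5: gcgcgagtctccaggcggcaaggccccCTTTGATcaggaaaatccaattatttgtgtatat
Wnt5b: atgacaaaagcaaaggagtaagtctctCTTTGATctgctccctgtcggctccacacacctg
Wnt11: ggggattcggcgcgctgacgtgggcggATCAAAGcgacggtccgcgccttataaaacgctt
The windows lie at chr2:70474792-70474852 (plus strand), chr6:119449424-119449484 (minus strand) and chr7:98835034-98835094 (plus strand). The motif begins 104, 71 and 51 bases before the respective start. For Wnt5b this is an internal start, since the window lies inside the coordinates listed for the gene (119432531 to 119544824). The Wnt11 window runs past the listed gene start of 98835084, so its start also lies inside the listed gene. These are matches of letters, and no binding was measured. The grainyhead motif AACNGGTT, also searched on both strands, was found in 0 of the 36 member promoters and in 2.09% of all promoters, which says only that these letters are not in these windows.

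Beyond the members, 77 other genes of the pathway were read from the same fit, and 58 of them were tested. Of these, 3 were called (3.59% of all genes tested were), 2 lower and 1 higher, and 9 (15.5%) had an unadjusted p under 0.05, near the 13.3% of all genes. Fermt1, which encodes the integrin-binding protein kindlin-1 (chromosome 2, 132904177 to 132946036), read 7.91, 10.6 and 12.96 CPM in Control, against 3.78, 3.59 and 3.96 CPM in Grhl2_cKO. Its groups did not overlap. By edgeR it fell to 35.9% of Control, -1.48 ± 0.19 (SE) on the log2 scale with an adjusted p of 0.0022, and was called in all 15 alternatives. Its paralog Fermt2, picked after its values were seen, had a fold of 1.03 (interval 0.925 to 1.15).

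Kremen1, a receptor that binds Dickkopf proteins and Lrp6, read 109, 87.4 and 94.0 CPM in Control, against 77.3, 71.3 and 74.0 CPM in Grhl2_cKO, without overlap. By edgeR it fell to 76.6% of Control, -0.38 ± 0.08 (SE) on the log2 scale with an adjusted p of 0.0316. Adding sex to the model ended the call (0.0537), as did leaving out any 1 library but Control replicate 3: Control replicate 1 (0.0523), Control replicate 7 (0.0657) and Grhl2_cKO replicates 1 (0.0583), 5 (0.124) and 10 (0.109), over a range of 0.00329 to 0.124. Ccnd2, the cyclin D2 gene, read 342, 309 and 333 CPM in Control, against 453, 445 and 419 CPM in Grhl2_cKO, again without overlap. By edgeR it rose 1.34-fold, 0.42 ± 0.07 (SE) on the log2 scale with an adjusted p of 0.00704, and was called in all 15 alternatives. So both D-type cyclins named here lay above Control in each Grhl2_cKO library, Ccnd2 as a called gene and Ccnd1 not.

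**Figure D5:**
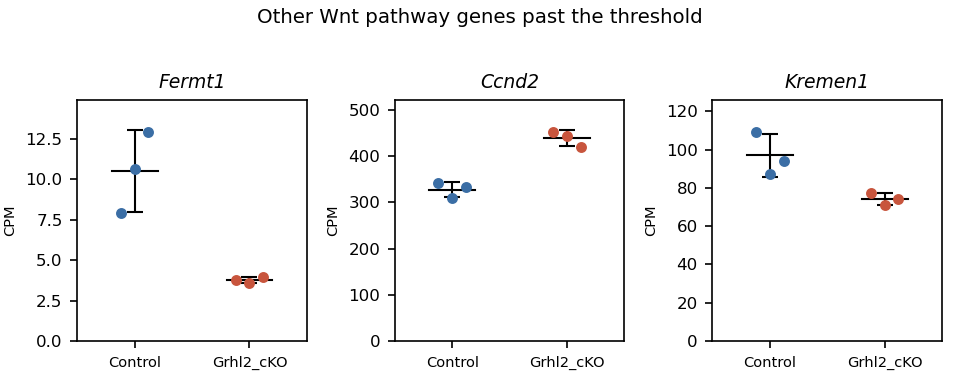
CPM of the 3 genes called among the 58 tested Wnt pathway genes outside the members. Points are libraries (replicates 1, 3 and 7 of Control, and 1, 5 and 10 of Grhl2_cKO, left to right), bars the mean and SD (n = 3). Fermt1 and Kremen1 are lower in every Grhl2_cKO library and Ccnd2 higher.

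The 4 genes with the next smallest p all lay above Control without passing. Ctnnbip1, an inhibitor that keeps beta-catenin from TCF, had a fold of 1.19 (interval 1.09 to 1.31) and an edgeR adjusted p of 0.0515, with calls in 6 of 15 alternatives (0.0385 to 0.166). Tnfrsf19, a reported target, had a fold of 1.18 (edgeR adjusted p = 0.0641, called in 2 of 15, 0.0435 to 0.237), and the glypican gene Gpc3 1.22 (0.084, called in 2 of 15, 0.00248 to 0.268). Porcn, the enzyme that attaches lipid to Wnt proteins, had a fold of 1.20 (interval 1.05 to 1.37, edgeR adjusted p = 0.159). Wls, the carrier that brings Wnt proteins to the surface, stood at 388 to 415 CPM in Control and 412 to 425 CPM in Grhl2_cKO libraries (fold 1.04, interval 0.948 to 1.14). Ctnnb1, the beta-catenin gene, stood at 1559 to 1595 and 1574 to 1650.4 CPM (fold 1.02, interval 0.913 to 1.14). Apc, of the degradation complex, stood at 266 to 279 and 241 to 263 CPM, with no overlap and a fold of 0.915 (edgeR adjusted p = 0.383). The R-spondin genes Rspo1, Rspo2 and Rspo3 and the ligand Wnt3a were tested and not called. Of the 8 other Wnt ligands, Wnt8a and Wnt8b had 0 counts in each library.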

How the data were processed

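The deposited values are whole-number counts for each Entrez gene, listed with a gene length. The submitters' processing notes name bcl2fastq 2.17.1.14, featureCounts, mm10, edgeR 3.16.5 and limma 3.30.12. For aligner and strand setting, nothing is given in the sources used here. In GENCODE M21, exons of 11 members overlap a gene on the opposite strand (Axin2, Ccnd1, Fzd5, Fzd6, Lef1, Notum, Sfrp2, Tcf7l1, Wnt11, Wnt5a and Wnt7b), so their counts are less certain. Symbols and mm10 coordinates came from RefSeq (25275 identifiers matched, 92.99%).

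Computed here: edgeR 4.0.16 in R 4.3.3, TMM scaling (0.981 to 1.009), filterByExpr (minimum count 10, minimum total 15), glmQLFit and glmQLFTest on all 14842 genes kept, no covariate, Benjamini-Hochberg over all genes, threshold 0.05. The SE is the log2 fold change over the root of F, and 95% intervals use the t distribution of the fit. The 15 alternatives changed the scaling (RLE, total count or upper quartile), the filter (none, or 1 CPM in 3 libraries), the tool (DESeq2 1.42.0, limma-voom from limma 3.58.1, or robust quasi-likelihood) or the model (sex added), or left out 1 library in turn. Replicate pairs differed beyond counting noise (chi-square per degree of freedom 7.72 to 12.9). The members and the gene lists were chosen with earlier results of these data known. Values in every library are given for members with an unadjusted p under 0.05 or a call in any alternative and for the 3 with the highest Control CPM in each role group. Of the other pathway genes, those called, the 4 with the next smallest p, Wls, Porcn, Ctnnb1 and Apc are named.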

Additional observations from a re-analysis of the deposited data

How the results depend on the processing

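Of the alternatives to the count of 0 members called, 1 was called with upper-quartile scaling, no filter, DESeq2 and robust quasi-likelihood (Ccnd1 each time), and 0 to 1 without 1 library each. The 3 calls among the other pathway genes became 5 with total-count scaling, 6 with DESeq2 and 2 to 3 without 1 library each. The 533 calls over all genes became 246 to 501 without 1 library each. Of 40 tested members, 13 changed sign in some alternative, 0 of them as a called gene. With limma-voom Wnt5a went from -0.017 to 0.017. Dkk3 went from -0.0029 to 0.0042 with RLE, 0.012 with upper-quartile scaling and 0.0019 with no filter. Leaving out 1 library each gave log2 fold changes of -0.11 to 0.19 for Wnt5a, -0.12 to 0.27 for Wnt11, -0.077 to 0.0079 for Fzd5, -0.039 to 0.15 for Fzd7, -0.13 to 0.028 for Fzd8, -0.011 to 0.057 for Lrp5, -0.0050 to 0.17 for Ror1, -0.0096 to 0.17 for Lgr5, -0.32 to 0.25 for Dkk3, -0.029 to 0.51 for Sfrp1, -0.19 to 0.73 for Sfrp2, -0.056 to 0.073 for Tcf7l1 and -0.20 to 0.0039 for Axin2. Fewer samples enter these fits, and the cause was not tested otherwise. Across the scalings the median of all genes moved by 0.015 or less (log2). No paired analysis was possible because the groups share 1 replicate number. Depth limits Wnt3, Wnt10a, Wnt10b and Fzd9, which were left untested, and Notum, Lgr4 and Fzd10, whose intervals are wide.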
